A study of Rattus norvegicus with 62 samples.

Results

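The 42 genes described here encode fibrillar and network-forming collagens, basement membrane proteins, elastic fibre proteins and cross-linking enzymes, small leucine-rich proteoglycans, adhesive and matricellular glycoproteins, and the PDGF receptors of fibroblasts and pericytes. They were chosen by name, and all 42 were found among the 40982 genes of each deposited count table. Poly-A RNA was counted in whole L4 dorsal root ganglia of rats after chronic constriction injury, in which loose ligatures are tied around the sciatic nerve. The ganglion on the injured (ipsilateral) side was compared with the ganglion on the opposite (contralateral) side. The study's title names sex and the resolution of neuropathic pain as its questions. Males were sampled at 24 h (6 ipsilateral and 6 contralateral libraries), 1 week (7 and 7) and 5 weeks (5 and 5), and females at 1 week (7 and 7) and 5 weeks (6 and 6), which makes 62 libraries. Every animal used here carried the injury, so the contralateral ganglia come from injured animals, and uninjured animals are not analysed here. The labels give neither strain nor age, and for males at 1 and 5 weeks they do not tie a library to an animal, so that p-values there measure the spread between these samples, which may be technical.

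Collagens are made as chains that fold into triple helices, are secreted and then assemble. Fibrillar collagens form the cables of the capsule and of the connective tissue between cells, fibril-associated collagens coat those cables, and collagen IV with laminins and nidogens forms the basement membrane that wraps each Schwann cell, each sheath of satellite glia and each vessel. In a peripheral ganglion most fibrillar matrix is made by fibroblasts of the capsule and endoneurium, while Schwann cells, endothelial cells, pericytes and perineurial cells add basement membrane. In bulk RNA, fewer cells of a type and less RNA per cell cannot be told apart.

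Promoter sequences of 5 members are shown because they belong to the genes on which the results turn: Col16a1, which was higher on the injured side in every arm, Fbln2, which was lower in 4 of the 5 arms, Col1a2, a fibrillar collagen whose side difference changed sign between the arms, and the pair Col4a1 and Col4a2, which are transcribed away from each other and were both lower on the injured side in females at 1 week. In males the Col1a2 calls were lost without single libraries, as given below. The lower Col4a1 and Col4a2 calls were lost with the share of ribosomal RNA as a covariate. The sequences are from RefSeq on GRCr8, written 5′ to 3′ on the plus strand, and the first 3 end at the base before the annotated start of the gene. Capitals mark a GC box (GGGCGG, or CCGCCC on the other strand), a CCAAT box (CCAAT or ATTGG) or a TATA box (TATAAA or TTTATA).
Col16a1, chr5:147672846-147673095: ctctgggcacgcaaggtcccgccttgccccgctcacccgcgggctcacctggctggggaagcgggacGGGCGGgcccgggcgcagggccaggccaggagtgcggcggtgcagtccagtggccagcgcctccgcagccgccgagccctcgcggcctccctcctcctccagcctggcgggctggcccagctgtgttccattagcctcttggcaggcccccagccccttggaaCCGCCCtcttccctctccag
Fbln2, chr4:125261409-125261658: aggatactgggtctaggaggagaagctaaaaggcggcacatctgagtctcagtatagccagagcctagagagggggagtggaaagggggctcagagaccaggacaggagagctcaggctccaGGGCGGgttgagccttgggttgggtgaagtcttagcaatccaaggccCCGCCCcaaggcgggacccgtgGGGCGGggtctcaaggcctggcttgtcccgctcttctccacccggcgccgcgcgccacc
Col1a2, chr4:33518307-33518556: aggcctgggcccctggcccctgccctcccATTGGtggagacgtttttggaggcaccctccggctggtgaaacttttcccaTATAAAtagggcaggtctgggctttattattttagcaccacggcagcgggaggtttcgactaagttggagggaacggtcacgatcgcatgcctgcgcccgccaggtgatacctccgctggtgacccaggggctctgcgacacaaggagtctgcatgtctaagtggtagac
Col4a1-Col4a2, chr16:84885521-84885596, all 76 bases between the 2 genes in that build: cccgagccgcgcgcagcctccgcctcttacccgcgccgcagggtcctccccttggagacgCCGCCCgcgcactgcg
The Col16a1 window held 2 GC boxes and the Fbln2 window 3, and neither held a TATA or a CCAAT box. The Col1a2 window held 1 TATA box and 1 CCAAT box and no GC box, and the Col4a1-Col4a2 stretch held 1 GC box. Of the 28 members with a promoter in the RefSeq table, 16 held a GC box within 250 bases before the start, against 30.5% of 33469 promoters of that length. A CCAAT box was found in 11 of the 28, against 34% of promoters, and a TATA box in 3, against 12.9%. These are letter matches in a window and not measured sites.

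The libraries held 18.9 to 33.5 M counts in the table of male 1 and 5 week samples (24 libraries) and 16.9 to 26.6 M in the table of female and male 24 h samples (38 libraries). The tables are scaled separately here and sex is tied to table at 1 and 5 weeks, so levels from different tables are set side by side only. Atf3, a nerve injury gene used to check the labels, lay between 5.60 and 13.4 CPM (counts per M counts, on scaled library sizes) in every contralateral library and between 145 and 376 CPM in every ipsilateral library. Some libraries stood apart in matrix RNA. Contralateral replicate 6 of females at 1 week was the lowest of its group for 41 of the 42 genes, contralateral replicate 6 of males at 1 week for 34 and ipsilateral replicate 3 of males at 5 weeks for 32, while ipsilateral replicate 1 of males at 5 weeks was the highest of its group for 33. Contralateral replicate 5 of males at 24 h held 36.8 CPM of summed adipocyte markers, against 1.44 to 5.91 in the other 5 libraries of its group, and 150.7 CPM of bone markers, against 57.0 to 71.3.

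Per kilobase of exon, Sparc, a matricellular protein that binds collagen, was the most abundant of the 42 genes, with a mean of 1054.6 counts per kb per M counts and a range of 705 to 1539 over the 62 libraries. Dcn (decorin) followed at 214, Col3a1 at 189, Col1a2 at 186, Col1a1 at 170 and Fbln2 at 113. Collagen IV, laminin and nidogen chains lay lower, from Col4a1 at 64.1 to Lama2 at 16.3. Postn (periostin), at 2.91, was the least abundant, followed by Pdgfra at 3.92 and Col11a1 at 4.38. Every gene was counted in every library, and the lowest value was 24 counts, for Col8a1. Libraries of 1 group spread unequally by gene. The SD within groups on the log2 CPM scale was 0.98 for Col8a1, 0.80 for Eln (elastin), 0.74 for Thbs1 and 0.61 for Postn, against 0.12 for Lamb1, Fbln5 and Sparc.

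**Figure D1:**
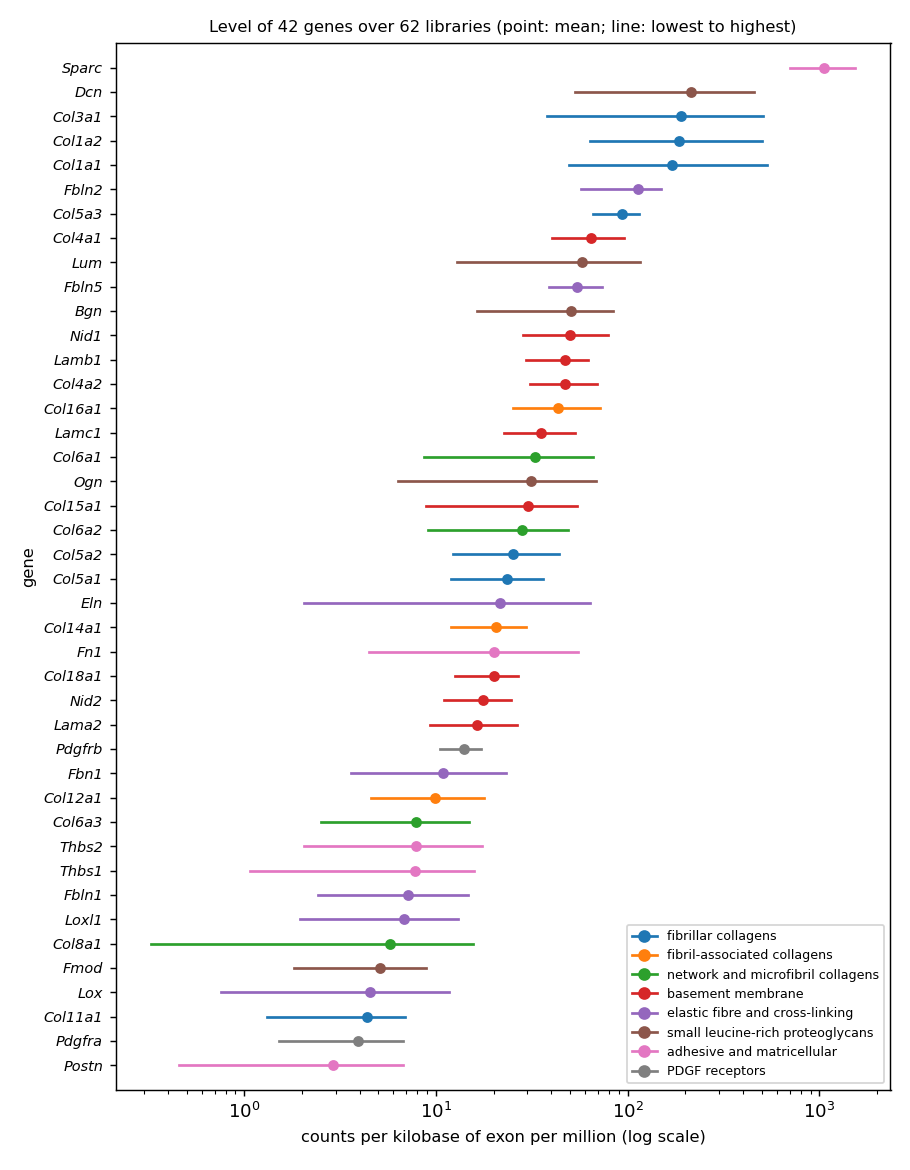
Level of each of the 42 genes in counts per kilobase of exon per M counts on a log axis, as the mean (point) with the lowest and highest of the 62 libraries (line), coloured by role. Sparc stands above all others with a mean of 1054.6, and Postn has the lowest mean, 2.91.

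The number of members that differed between the sides depended on the arm. All calls are at an adjusted p under 0.05 (edgeR quasi-likelihood test, sides not paired unless a block is named, Benjamini-Hochberg over all genes tested). In males at 24 h, 1 gene was higher and 4 were lower on the injured side, while 8.23% of all genes tested were called higher and 5.9% lower. The median log2 fold change of the 42 was -0.20, against -0.01 for all genes. With the animal as a block there were 11 calls, 3 higher and 8 lower, against 9.53% and 7.82% of all genes under the block. The count also moved with single libraries: it was 2 without contralateral replicate 5, 9 without contralateral replicate 4, 8 without contralateral replicate 6, 12 without ipsilateral replicate 1, 3 without ipsilateral replicate 2 or 3, and 1 without ipsilateral replicate 4. Here and below, the share of all genes called without a single library is not given. Such moves are therefore not shown to be particular to the members. With only these 2 groups in the fit the 4 lower calls were lost, with adjusted p from 0.0607 to 0.212.

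In males at 1 week, 13 members were higher and 2 lower, against 23.6% and 23.4% of all genes (47% in both directions), with a median of 0.36 against 0.01. With replicate number as a block, 26 were higher and 3 lower, against 27.3% and 26.6% of all genes under the block. Summed erythrocyte markers moved with this arm, from 143 to 909 CPM (median 342) on the contralateral to 662 to 2248 (median 1031) on the ipsilateral side, with all 10 called higher, and ran the other way at 24 h, from 523 to 3647 (median 899) to 312 to 1416 (median 508), with 1 called lower. Their part in the members' counts was not tested. Without contralateral replicate 6, the library that was lowest for 34 genes, 8 were higher and 2 lower. With no filter on low counts Col1a2, Col5a1, Col15a1 and Sparc lost their calls (adjusted p from 0.0555 to 0.0728). In males at 5 weeks, 6 were higher and 2 lower, against 16% and 18.7% of all genes (34.7% in both directions), with a median of 0.08 against 0.00. The block gave 9 higher and 4 lower there, against 19.1% and 21.9% of all genes under the block.

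In females at 1 week, 2 members were higher and 8 lower, against 23.9% and 21.8% of all genes (45.7% in both directions), with a median of -0.23 against 0.01. All 8 lower calls were lost with the ribosomal RNA share as a covariate, a share that differed by side in this arm. In females at 5 weeks, 28 were higher and 1 lower, against 22.9% and 19.1% of all genes, with a median of 0.59 against 0.01. With the replicate block, the number of calls in each female arm stayed within 1.5 times of the one given. The shares of all genes under that block are not given for these 2 arms. Over the 5 arms, 22 genes were called higher in at least 1 arm and lower in none, 4 were lower in at least 1 and higher in none, 7 were called in both directions, and 9 were called in none. The matching counts over all genes are not given here, and single arms called 14.1% to 47% of all genes in either direction.

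**Figure D2:**
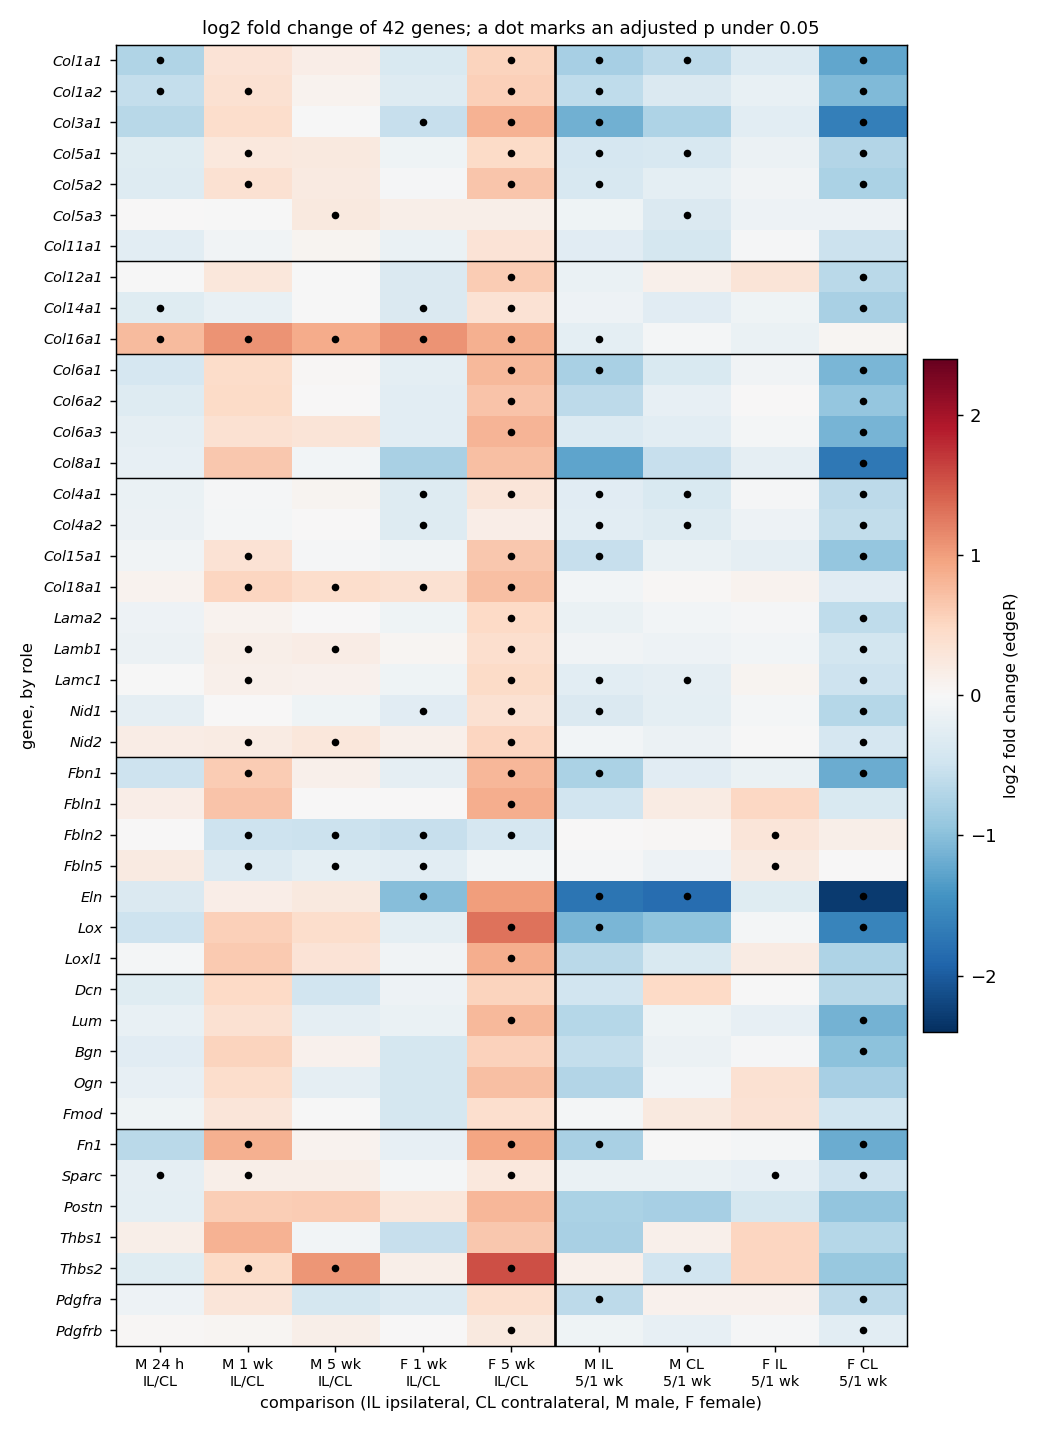
Log2 fold change of the 42 genes (rows, grouped by role) in the 5 comparisons of ipsilateral with contralateral ganglia and the 4 comparisons of 5 weeks with 1 week within a side (columns), with a dot where the adjusted p was under 0.05. The female 5 week column holds 28 genes called higher, and the column of female contralateral ganglia, 5 weeks against 1 week, holds 28 called lower.

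The fibrillar collagens are Col1a1 and Col1a2 (the chains of collagen I), Col3a1 (collagen III), Col5a1, Col5a2 and Col5a3 (collagen V, which starts and limits fibrils) and Col11a1 (collagen XI). Of these 7, 2 fell on the injured side in males at 24 h, 3 rose in males at 1 week, 1 rose in males at 5 weeks, 1 fell in females at 1 week and 5 rose in females at 5 weeks. The single calls of males at 5 weeks and females at 1 week are 14.3% of the 7, under the 16% of all genes called higher and the 21.8% called lower there, while 28.6% were lower in males at 24 h against 5.9% of all genes, 42.9% higher in males at 1 week against 23.6% and 71.4% higher in females at 5 weeks against 22.9%.

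Col1a1 (chromosome 10, 79883622 to 79900625, plus strand) ran from 1074 to 3110 CPM (median 1609) in contralateral and from 828 to 1787 (median 1062) in ipsilateral ganglia of males at 24 h. Its log2 fold change was -0.71 (SE 0.220, adjusted p = 0.0254), lower in 5 of 6 pairs, and the groups overlapped. The call was lost without any of 5 libraries (contralateral replicates 1 and 5, ipsilateral replicates 2, 3 and 4), with adjusted p from 0.0528 to 0.120. Col1a2 (chromosome 4, 32563938 to 32598868, plus strand) had -0.58 (SE 0.195, adjusted p = 0.0419), lost without any of 8 of the 12 libraries, all but contralateral replicates 2, 4 and 6 and ipsilateral replicate 1. With the animal as a block, Col3a1 (-0.62, adjusted p = 0.0455), Col5a1 (-0.29, 0.0309) and Col11a1 (-0.27, 0.0414) were called lower as well.

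At 1 week in males the sign was the other way. Col1a2 lay between 763 and 993 CPM (median 952) on the contralateral and between 957 and 1311 (median 1136) on the ipsilateral side, a log2 fold change of 0.36 (SE 0.130, adjusted p = 0.0272) with 7 of 7 pairs higher. The ranges overlapped from 957 to 993 CPM, and the call was lost without any of 5 libraries (contralateral replicates 3 and 6, ipsilateral replicates 1, 4 and 7), with adjusted p from 0.0502 to 0.0571. Col5a2 did not overlap between the sides (130 to 178, median 157, against 180 to 235, median 201 CPM) and rose by 0.37 (SE 0.0899, adjusted p = 0.00146). Col5a1 rose less, by 0.25 (adjusted p = 0.0304), and was lost without contralateral replicate 6 or ipsilateral replicate 1, 3 or 4 (0.0505 to 0.0681). Col1a1 (0.32, adjusted p = 0.0555) and Col3a1 (0.42, 0.125) did not pass the test, and both did with the block (0.0166 and 0.0318).

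In females 1 fibrillar gene, Col3a1, was called at 1 week. Col3a1 (chromosome 9, 47374611 to 47410547, plus strand) ran from 430 to 1054 CPM (median 896) on the contralateral and from 452 to 839 (median 585) on the ipsilateral side at 1 week. The fold change was -0.56 (SE 0.221, adjusted p = 0.0386), and the call was lost without any of 9 of the 14 libraries, all but contralateral replicates 1, 3 and 6 and ipsilateral replicates 2 and 5 (0.0507 to 0.0779), and with the ribosomal RNA share as a covariate. At 5 weeks it ran from 180 to 397 (median 249) against 392 to 598 CPM (median 508), a rise of 0.83 (SE 0.241, adjusted p = 0.00584) in 6 of 6 pairs. Col1a1 lay at 289 to 499 (median 364) against 490 to 703 CPM (median 556), and rose by 0.54 (SE 0.221, adjusted p = 0.0471), a call lost without any of 9 of the 12 libraries (all but contralateral replicates 1 and 4 and ipsilateral replicate 3), with RLE scaling and with no filter on low counts (adjusted p up to 0.108). Col1a2 (0.57, 0.0178) and Col5a1 (0.46, 0.00209) rose with it, and Col5a2 rose by 0.67 (SE 0.123, adjusted p = 4.60e-05), from 77.9 to 111 CPM (median 88.8) to 131 to 171 (median 144) with no overlap.

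At 5 weeks in males Col1a1 was at 754, 911, 604, 859 and 569 CPM on the contralateral and 1074, 824, 477, 966 and 778 CPM on the ipsilateral side, and its log2 fold change was 0.16 (adjusted p = 0.504). The sides overlapped widely. Col5a3 was the fibrillar gene called in that arm, with contralateral libraries at 584, 561, 567, 483 and 450 CPM and ipsilateral libraries at 647, 624.8, 641, 586 and 593 CPM. The groups did not overlap, and the log2 fold change was 0.23 (SE 0.0699, adjusted p = 0.0136). The test of a larger Col5a3 side difference at 5 weeks than at 1 week in males gave 0.24 (SE 0.0914, adjusted p = 0.322), and with the block 0.25 (adjusted p = 0.0125). Col11a1 ran from 10.3 to 53.8 CPM over the libraries of the second table and was called in no arm.

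Col16a1, a fibril-associated collagen, was the one member called higher in all 5 arms. Its gene lies on chromosome 5 from 142388376 to 142442825 on the plus strand (mRatBN7.2). In males at 24 h it ran from 145 to 190 CPM (median 171) in contralateral and from 212 to 336 (median 301) in ipsilateral ganglia. At 1 week the male ranges were 155 to 199 (median 179) and 346 to 401 (median 370). At 5 weeks the male contralateral libraries held 178, 177, 175, 170 and 146 CPM and the ipsilateral libraries 268, 342, 288, 346 and 334 CPM. The groups were apart in each of these arms, with every ipsilateral library above every contralateral one.

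Female Col16a1 levels ran from 142 to 175 (median 156) and 285 to 405 CPM (median 329) at 1 week, and from 148 to 195 (median 159) and 269 to 319 CPM (median 292) at 5 weeks, again with no overlap. The log2 fold changes were 0.75 (SE 0.0892, adjusted p = 8.00e-08), 1.08 (0.0618, 7.92e-13) and 0.90 (0.0733, 1.36e-09) in males at 24 h, 1 week and 5 weeks. In females they were 1.07 (SE 0.0830, adjusted p = 3.83e-13) at 1 week and 0.86 (0.0894, 1.26e-09) at 5 weeks. All 31 pairs of same-numbered libraries had the higher value on the injured side. The male side difference was larger at 1 week than at 24 h by 0.33 on the log2 scale, and ipsilateral levels fell from 1 to 5 weeks in males by 0.24 (SE 0.0672, adjusted p = 0.0192), a call lost without ipsilateral replicate 1 or 3 of the 5 week group (0.0697 and 0.0656).

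Col14a1 and Col12a1, the other fibril-associated collagens, moved otherwise. Col14a1 fell in males at 24 h (-0.28, SE 0.0850, adjusted p = 0.0201, lower in 6 of 6 pairs, and 0.0598 without ipsilateral replicate 4) and in females at 1 week, from 134 to 183 CPM (median 166) to 107 to 140 (median 129). That fall was -0.34 (SE 0.0790, adjusted p = 0.000573), in 7 of 7 pairs. In females at 5 weeks Col14a1 rose by 0.34 (SE 0.0863, adjusted p = 0.00162). Col12a1 rose in females at 5 weeks by 0.60 (SE 0.202, adjusted p = 0.0160) and was not called in the other arms.

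**Figure D3:**
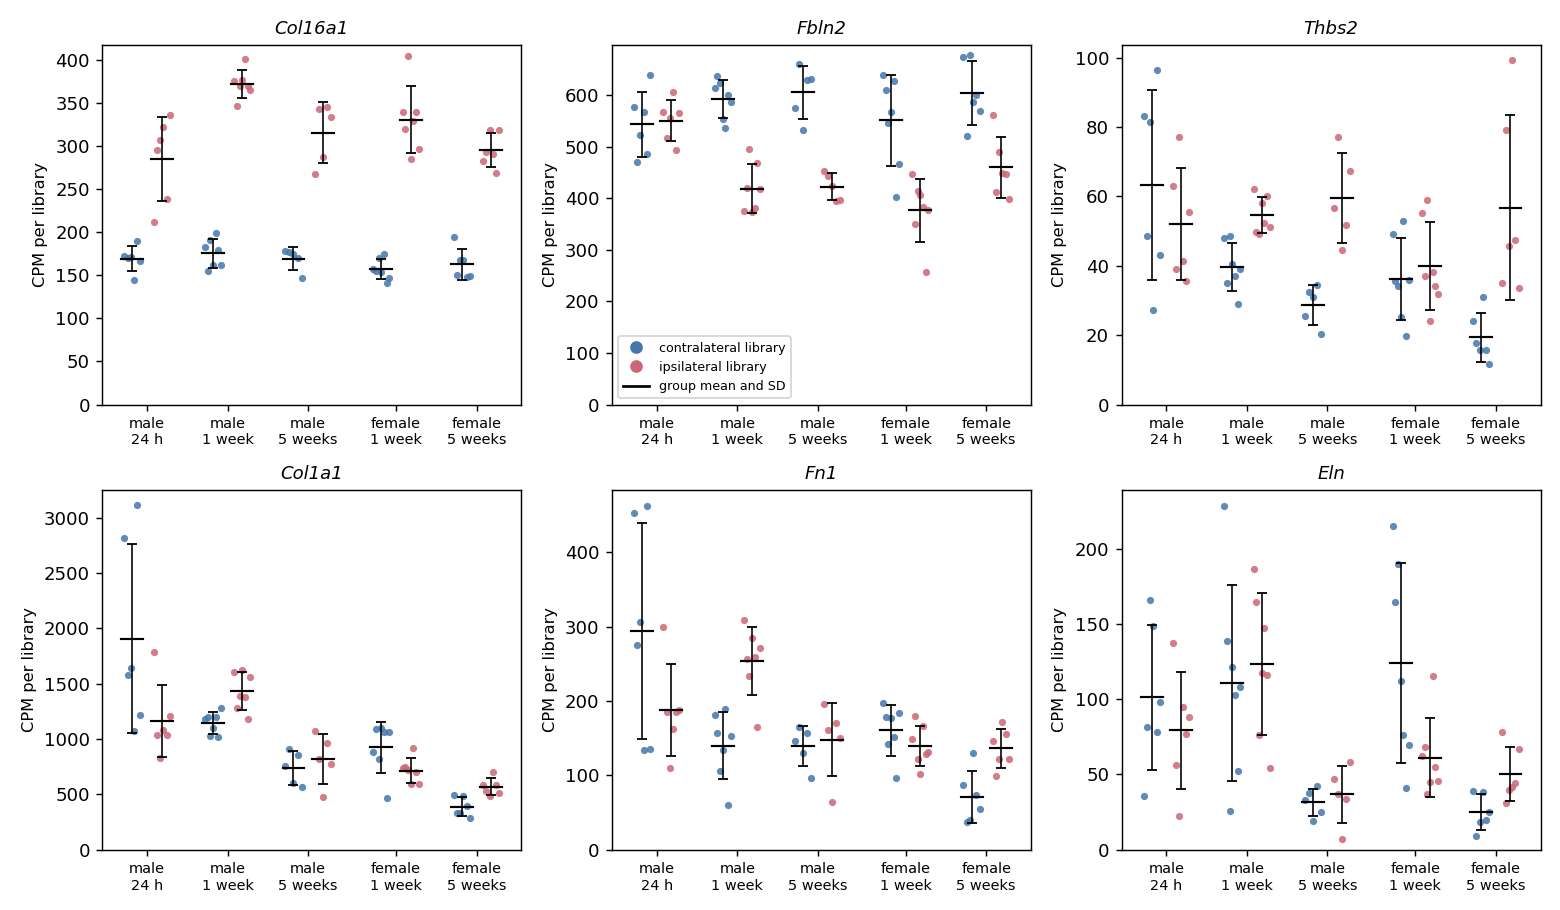
CPM per library of Col16a1, Fbln2, Thbs2, Col1a1, Fn1 and Eln in the 10 groups (each point is 1 library, with the group mean and SD). Ipsilateral Col16a1 libraries lie above all contralateral libraries of their arm in each arm, and Col1a1, Fn1 and Eln have their lowest group mean in contralateral ganglia of females at 5 weeks.

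The network and microfibril collagens were called in 1 arm. Col6a1, Col6a2 and Col6a3, the chains of the collagen VI microfibrils around cells, rose in females at 5 weeks by 0.78 (SE 0.230, adjusted p = 0.00637), 0.69 (0.213, 0.00939) and 0.81 (0.182, 0.000505). Col6a3 ran from 27.5 to 60.5 CPM (median 37.4) on the contralateral and from 57.3 to 94.3 (median 69.6) on the ipsilateral side, with overlapping ends. In males at 1 week the 3 chains had 0.45, 0.45 and 0.36 with adjusted p of 0.107, 0.0807 and 0.110, and with the block all 3 passed (0.0233, 0.0145 and 0.0146). Col8a1, a short-chain collagen of vessels, had the widest spread of the 42 and was not called between sides in any arm, with log2 fold changes from -0.77 in females at 1 week to 0.72 in females at 5 weeks.

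Of the 9 basement membrane genes, 5 rose in males at 1 week, 3 in males at 5 weeks and 8 in females at 5 weeks, while in females at 1 week 1 rose and 3 fell. These are 55.6%, 33.3% and 88.9% higher, against 23.6%, 16% and 22.9% of all genes, and in females at 1 week 11.1% higher and 33.3% lower, against 23.9% and 21.8%. Col18a1, a collagen of vessel and epithelial basement membranes, was called higher in 4 arms. In males at 1 week it ran from 72.7 to 92.1 CPM (median 89.2) against 110 to 135 (median 125), and in males at 5 weeks the contralateral libraries held 87.6, 87.5, 91.7, 92.5 and 78.7 CPM and the ipsilateral libraries 113, 121, 107, 120 and 126 CPM. The groups did not overlap in either. The rises were 0.52 (SE 0.0548, adjusted p = 2.99e-08) and 0.42 (0.0653, 1.40e-05). In females it rose by 0.36 (SE 0.0979, adjusted p = 0.00247) at 1 week and, with no overlap, by 0.73 (0.107, 1.13e-06) at 5 weeks, from 63.0 to 85.6 (median 67.1) to 108 to 131 CPM (median 117).

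Nid2, a nidogen that links laminin to collagen IV, rose in males at 1 week (0.19, SE 0.0645, adjusted p = 0.0185), in males at 5 weeks (0.28, 0.0772, 0.00636) and in females at 5 weeks (0.52, 0.0794, 1.66e-06). Lamb1, a laminin beta chain, rose in the same 3 arms by 0.14, 0.17 and 0.41 (adjusted p = 0.00394, 0.00429 and 4.43e-05). Its male 5 week libraries held 251, 257, 232, 259 and 230 CPM on the contralateral and 305, 272, 272, 272 and 264 CPM on the ipsilateral side, which did not overlap. Lamc1, the gamma chain shared by most laminins, rose in males at 1 week by 0.13 (adjusted p = 0.0289), a call lost without contralateral replicate 6 (0.0583) or ipsilateral replicate 4 (0.0687), and in females at 5 weeks by 0.45 (SE 0.0829, adjusted p = 3.48e-05). Lama2, the alpha chain of the Schwann cell laminin, rose in females at 5 weeks only among the arms, from 89.5 to 121 (median 98.1) to 129 to 169 CPM (median 137), by 0.48 (SE 0.0976, adjusted p = 0.000134).

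Col4a1 and Col4a2 lie head to head on chromosome 16, Col4a2 from 78047591 to 78183360 on the minus and Col4a1 from 78183533 to 78294412 on the plus strand, with starts 172 bases apart in the files' build. In females at 1 week both fell. Col4a1 ran from 347 to 527 CPM (median 456) on the contralateral and from 330 to 390 (median 363) on the ipsilateral side, -0.32 (SE 0.0813, adjusted p = 0.00148), and Col4a2 had -0.30 (0.0847, 0.00348). Both of these calls were lost with the ribosomal RNA share as a covariate. At 5 weeks Col4a1 rose by 0.30 (SE 0.0880, adjusted p = 0.00641), while Col4a2, at 0.16, did not pass (0.168). Nid1 fell at 1 week (-0.27, adjusted p = 0.0239, lost without contralateral replicate 5 or ipsilateral replicate 6 at 0.0676 and 0.0508) and rose at 5 weeks (0.36, 0.00613) in females, and Col15a1, a basement membrane collagen of muscle and nerve, rose in males at 1 week (0.35, 0.0290, lost without contralateral replicate 4 or 6 or ipsilateral replicate 7 at 0.0574 to 0.0636) and in females at 5 weeks (0.65, 0.00466).

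Among the elastic fibre and cross-linking genes, Fbln2 was called lower in 4 arms and Fbln5 in 3. In males at 1 and 5 weeks both went against most of the other called members, as Fbln2 did in females at 5 weeks. In females at 1 week, where 2 members were called higher and 8 lower, both went with the majority. Fbln2 (fibulin-2, chromosome 4, 123704289 to 123763857, plus strand) was at 535 to 636 CPM (median 599) on the contralateral and 374 to 495 (median 419) on the ipsilateral side of males at 1 week. At 5 weeks the male libraries held 575, 660, 531, 628 and 631 CPM against 452, 443, 424, 394 and 397 CPM. Neither arm overlapped. Fbln2 fell by 0.50 (SE 0.0618, adjusted p = 3.30e-07) and by 0.52 (0.0732, 4.52e-06).

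In females Fbln2 ran from 403 to 638 (median 567) against 258 to 447 CPM (median 382) at 1 week and from 520 to 677 (median 593) against 399 to 561 CPM (median 448) at 5 weeks. The ranges overlapped, all 13 pairs were lower on the injured side, and the falls were 0.55 (SE 0.10, adjusted p = 2.40e-05) and 0.39 (0.108, 0.00347). At 24 h in males it was not called (0.02, adjusted p = 0.945). Fbln5 (fibulin-5, which tethers elastic fibres to cells) fell in males at 1 week by 0.33 (SE 0.050, adjusted p = 7.35e-06), with no overlap, in males at 5 weeks by 0.24 (0.0595, 0.00242) and in females at 1 week by 0.26 (0.0703, 0.00261). At 24 h its log2 fold change was 0.21 (adjusted p = 0.0571), which passed with the block (1.82e-05).

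The other 5 genes of that role were called in 1 or 2 arms each. Fbn1 (fibrillin-1, the microfibril backbone) rose in males at 1 week by 0.60 (SE 0.186, adjusted p = 0.0111) and in females at 5 weeks by 0.81 (0.195, 0.00115), there from 35.7 to 64.2 (median 43.4) to 67.0 to 95.4 CPM (median 85.1) with no overlap. Lox, the lysyl oxidase that cross-links collagen and elastin, ran from 3.90 to 18.9 CPM (median 6.03) on the contralateral and from 18.4 to 24.5 (median 19.5) on the ipsilateral side of females at 5 weeks, a rise of 1.31 (SE 0.337, adjusted p = 0.00208). Loxl1 (0.86, 0.0181) and Fbln1 (0.87, 0.0184) rose in that arm too, and both calls were lost without contralateral replicate 2 or 3, with adjusted p from 0.0530 to 0.0553 (for Fbln1 also without ipsilateral replicate 6). Eln, at 41.0 to 215 CPM (median 112) on the contralateral and 36.8 to 115 (median 54.7) on the ipsilateral side of females at 1 week, fell by 1.02 (SE 0.372, adjusted p = 0.0250). That call was lost with the block (-0.92, adjusted p = 0.0857) and without contralateral replicate 1 or 3 or ipsilateral replicate 3 (0.0529 to 0.0744). At 5 weeks the female Eln value was 1.00 (SE 0.426, adjusted p = 0.0585).

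The small leucine-rich proteoglycans, which bind collagen fibrils and set their width, were the least called role. Lum (lumican) rose in females at 5 weeks by 0.78 (SE 0.273, adjusted p = 0.0218), from 22.2 to 82.9 (median 42.7) to 42.4 to 95.3 CPM (median 80.2), and lost the call without contralateral replicate 2, 3 or 6 (0.0538 to 0.0647). Dcn, Bgn (biglycan), Ogn (osteoglycin) and Fmod (fibromodulin) were called in no arm. In females at 5 weeks their log2 fold changes were 0.53, 0.54, 0.72 and 0.40, with adjusted p of 0.0776, 0.0692, 0.0753 and 0.266, and with the block the first 3 passed (0.0232, 0.0471 and 0.0468). Dcn, the most abundant of these per length, ran from 199 to 426 (median 378) against 384 to 580 CPM (median 473) in males at 1 week, and its male 5 week libraries held 577, 642, 282, 579 and 352 CPM on the contralateral and 540, 367, 150, 352 and 361 CPM on the ipsilateral side. The sides overlapped in both. Its log2 fold changes were 0.48 at 1 week and -0.46 at 5 weeks (adjusted p = 0.0926 and 0.208), and with the block both passed, in opposite directions (0.50, 0.0112 and -0.50, 0.0348).

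Of the adhesive and matricellular genes, Thbs2 (thrombospondin-2) had the largest rise of the 42 in males at 5 weeks and in females at 5 weeks. Its male 5 week libraries held 25.7, 32.3, 31.0, 34.6 and 20.3 CPM on the contralateral and 56.7, 77.2, 44.7, 51.8 and 67.5 CPM on the ipsilateral side, and its female 5 week libraries 11.7 to 31.0 (median 16.8) and 33.6 to 99.4 CPM (median 46.6). No groups overlapped there. The rises were 1.05 (SE 0.154, adjusted p = 1.18e-05) and 1.55 (0.321, 0.000202). In males at 1 week Thbs2 rose by 0.47 (SE 0.127, adjusted p = 0.00422), from 29.1 to 48.5 (median 39.2) to 49.2 to 62.1 CPM (median 52.3), also with no overlap.

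Fn1 (fibronectin, the cell-adhesive scaffold) rose in males at 1 week by 0.86 (SE 0.229, adjusted p = 0.00400), from 60.7 to 189 (median 154) to 165 to 309 CPM (median 260), and in females at 5 weeks by 0.95 (0.291, 0.00862), from 37.5 to 130 (median 64.1) to 99.5 to 172 CPM (median 135). Every pair of both arms was higher on the injured side, and the ranges overlapped. Sparc changed little and in both directions. It fell in males at 24 h by 0.21 (SE 0.0717, adjusted p = 0.0419) and rose in males at 1 week by 0.15 (0.0581, 0.0431). The first call was lost without contralateral replicate 1, 2, 3 or 5 or ipsilateral replicate 2, 4 or 5, the second without contralateral replicate 2, 5, 6 or 7 or ipsilateral replicate 1, 4 or 5 (0.0566 to 0.121 over both). It rose in females at 5 weeks by 0.26 (0.0718, 0.00387), from 1503 to 1807 (median 1688) to 1817 to 2161 CPM (median 1992) with no overlap. Postn, at 1.56 to 15.5 CPM (median 2.51) against 4.81 to 13.7 (median 7.67) in females at 5 weeks, and Thbs1 were called in no arm, and with the block they passed in males at 1 week (0.63, adjusted p = 0.0149 and 0.87, 0.0152) and in females at 5 weeks (1.06, 0.00912 and 0.97, 0.0411).

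The PDGF receptors mark fibroblasts (Pdgfra) and pericytes (Pdgfrb, also in fibroblasts). Pdgfrb ran from 56.5 to 71.8 (median 61.9) to 66.1 to 86.6 CPM (median 74.3) in females at 5 weeks, a rise of 0.24 (SE 0.0721, adjusted p = 0.00678), and was not called in the other arms. Pdgfra was called in no arm. With the block it passed in 3 of them, higher in males at 1 week (0.30, adjusted p = 0.0463) and in females at 5 weeks (0.43, 0.0404) and lower in males at 5 weeks (-0.45, 0.0286).

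The change between weeks was then examined within each side. In contralateral ganglia of females, 28 of the 42 genes were lower at 5 weeks than at 1 week and none was higher, against 7.55% of all genes lower and 3.13% higher, with a median of -0.70 against 0.00. They were 5 of the 7 fibrillar, 2 of the 3 fibril-associated, all 4 network, 8 of the 9 basement membrane and 3 of the 7 elastic fibre genes, 2 of the 5 proteoglycans, 2 of the 5 adhesive genes and both PDGF receptors. Eln fell by 2.30 (SE 0.420, adjusted p = 0.00031), Col8a1 by 1.71 (0.494, 0.0209), Col3a1 by 1.64 (0.239, 1.52e-05) and Lox by 1.59 (0.327, 0.00118). Col1a1 ran from 471 to 1102 CPM (median 1060) at 1 week and from 289 to 499 (median 364) at 5 weeks, with adjusted p = 0.00017 and 1 library of the first group within the range of the second. Leaving out single libraries gave 25 to 34 calls, and Col8a1 lost its call without replicate 1 of the 1 week or 2, 3 or 6 of the 5 week group (0.0517 to 0.0600).

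In ipsilateral ganglia of females 2 members were higher and 1 lower at 5 weeks, against 8.74% and 8.54% of all genes, with a median of -0.04 against -0.01. Fbln2 was higher by 0.29 (SE 0.104, adjusted p = 0.04999, just under the threshold), Fbln5 was higher by 0.21 (0.0731, 0.0434) and Sparc was lower by 0.20 (0.0692, 0.0407). Without ipsilateral replicate 2, 5 or 6 of the 1 week group, or replicate 1 or 3 of the 5 week group, none was called, and without replicate 7 of the first or 6 of the second there was 1. With the share of ribosomal RNA as a covariate the edgeR count was also 0. DESeq2 and limma-voom gave 3 calls each without it, and 3 genes had an unadjusted p under 0.05.

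In males 17 members were lower on the ipsilateral side at 5 weeks and none higher, against 6.78% and 7.66% of all genes, and the median was -0.39 against 0.00. Col3a1 fell by 1.16 (SE 0.252, adjusted p = 0.00383), Col1a1 by 0.80 (0.152, 0.00127) and Eln by 1.74 (0.468, 0.0155). Without ipsilateral replicate 3 of the 5 week group, the library that was lowest for 32 genes, 9 were called. On the contralateral side of males 8 were lower and none higher, against 6.2% and 7.34% of all genes, with a median of -0.21 against 0.02. These were Col1a1, Col5a1, Col5a3, Col4a1, Col4a2, Lamc1, Thbs2 and Eln, the last by 1.82 (SE 0.474, adjusted p = 0.0138). Without contralateral replicate 6 of the 1 week group 13 were called, and Thbs2 lost its call without contralateral replicate 1, 3 or 4 of the 1 week or 1, 3 or 5 of the 5 week group (0.0506 to 0.107).

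The share of counts on ribosomal RNA genes, which poly-A selection is meant to remove, moved with the weeks and, in females at 1 week, with the side. It ran from 3.75 to 5.99% in males at 1 week and from 3.06 to 4.29% at 5 weeks. In females at 1 week it ran from 1.69 to 2.76% in contralateral and from 0.692 to 1.42% in ipsilateral ganglia, with no overlap, and from 1.6 to 2.49% on both sides at 5 weeks. With this share as a covariate, 3 members were called in females at 1 week, all higher (Col16a1, Nid2 and Col18a1), so that the 8 lower calls of that arm were lost, and 29 in females at 5 weeks. The count was 3 for male ipsilateral and 0 for male contralateral ganglia between weeks, where 21 genes had an unadjusted p under 0.05 without the covariate and DESeq2 gave 14 calls. How many of all genes were called under this covariate is not given here, so the lost calls are not shown to be particular to the members. Where the share moved with the side or the week, the covariate and the comparison cannot be told apart. A lost call there decides nothing about its cause. The part of the ribosomal RNA share in the results was not tested further.

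The side difference of females was tested for a change from 1 to 5 weeks. It was larger at 5 weeks for 25 members and smaller for none, against 7.66% and 5.88% of all genes, with a median of 0.72 against -0.01. Eln had the largest value, 2.02, followed by Lox (1.54), Thbs2 (1.41), Col3a1 (1.39) and Fn1 (1.15). With the ribosomal RNA share as a covariate 1 member was called, Col14a1 (0.62, adjusted p = 0.0220). The comparison of sides at 5 weeks and the comparison of weeks on the contralateral side share the 6 contralateral libraries of the 5 week group. Those libraries held the lowest group mean of all 10 groups for 38 of the 42 genes, where levels of the male 1 and 5 week groups come from the table scaled separately.

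The summed level of all 42 genes shows the same libraries side by side. In females at 1 week it ran from 7604 to 12181 CPM (median 11420) on the contralateral and from 8498 to 11033 (median 9530.5) on the ipsilateral side. At 5 weeks it ran from 6045 to 8200 (median 6525) on the contralateral and from 7908 to 10181 (median 9045) on the ipsilateral side, so the contralateral median was the lower of the sides at 5 weeks and the higher at 1 week. When the ipsilateral libraries of one week were compared with the contralateral ones of the other, females at 1 week had 30 members higher and 2 lower, against 26.4% and 21.4% of all genes, and females at 5 weeks had 2 higher and 10 lower, against 19.1% and 17.6%. Males at 1 week had 28 higher and 2 lower, against 23.6% and 25.1%, and males at 5 weeks 3 higher and 9 lower, against 22.3% and 22.5%. Col16a1 was called higher and Fbln2 lower in those 4 comparisons as well, with the highest adjusted p of 0.0478 for Fbln2 in females at 5 weeks.

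**Figure D4:**
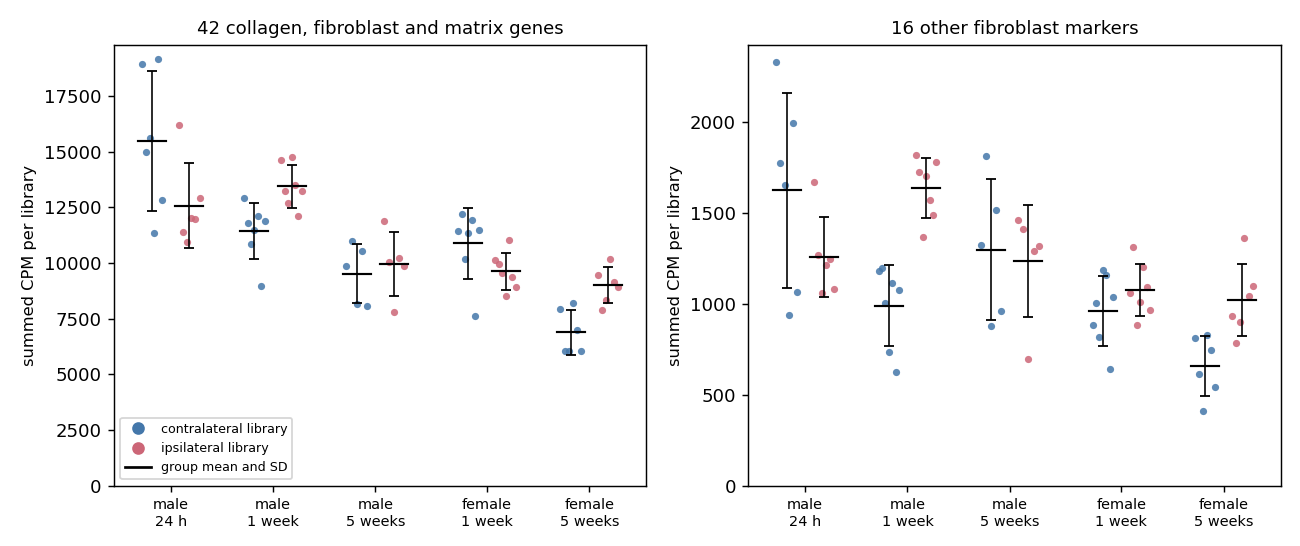
Summed CPM per library of the 42 genes (left panel) and of 16 other fibroblast markers (right panel) in the 10 groups, with the group mean and SD. Contralateral ganglia of females at 5 weeks have the lowest group mean in both panels, with summed members between 6045 and 8200 CPM and summed other markers between 413 and 832 CPM, and single libraries of other groups lie within these ranges (male 1 and 5 week groups come from the table scaled separately).

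In males the side difference was not called as changed between 1 and 5 weeks for any member with edgeR, DESeq2 or limma-voom. At an unadjusted p under 0.05 there were 5 genes, and 0.211% of all genes were called. With the block there were 2, Dcn (-0.997, adjusted p = 0.0429) and Col5a3, against 2.62% of all genes. From 24 h to 1 week the male side difference became larger for 12 members and smaller for 2, against 11% and 12% of all genes (23% in both directions), with a median of 0.51 against 0.00. Fn1 moved by 1.501, Fbn1 by 1.10, Col3a1 by 1.09 and Col1a1 by 1.03, while Fbln2 (-0.52) and Fbln5 (-0.54) moved down. The block gave 20 larger and 2 smaller, against 14.1% and 14.8% of all genes under the block. These 2 times lie in different tables, so time and table cannot be told apart.

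The side difference was also compared between the sexes, with sex tied to table. At 1 week no member was called with edgeR, DESeq2 or limma-voom fitted over all groups, against 1.11% of all genes, although the median of the female minus male difference was -0.49 against 0.01 for all genes and 25 members had an unadjusted p under 0.05, all lower in females. With only the compared groups in the edgeR fit 1 was called, Col1a2 (-0.67, adjusted p = 0.0350). With the block 8 were called, against 1.67% of all genes lower, all lower in females: Fn1 (-1.12), Col3a1 (-1.03), Fbn1 (-0.88), Col6a2 (-0.75), Col1a2 (-0.66), Col4a1 (-0.30), Nid1 (-0.29) and Lamc1 (-0.24). At 5 weeks 1 member was called, against 1.55% of all genes called higher. It was Lama2, with a side difference larger in females by 0.45 on the log2 scale (adjusted p = 0.0442), and that call was lost with no filter on low counts, with only the groups compared in the fit and with the ribosomal RNA share as a covariate (adjusted p up to 0.0714). The median was 0.44 against -0.01. With the block 6 were called, against 2.6% of all genes larger, all larger in females: Dcn (1.04), Pdgfra (0.84), Col15a1 (0.66), Lama2 (0.45), Nid1 (0.43) and Lamc1 (0.32).

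Other genes of the pathway were followed in 4 lists that exclude the 42. Their counts stand against the shares of all genes called: 8.23% higher and 5.9% lower in males at 24 h, 23.6% and 23.4% in males at 1 week, 16% and 18.7% in males at 5 weeks, 23.9% and 21.8% in females at 1 week, and 22.9% and 19.1% in females at 5 weeks. Of 21 tested enzymes and chaperones that make collagen, 1 was higher in males at 24 h, 8 in males at 1 week, 6 in males at 5 weeks (with 1 lower), 6 in females at 1 week (with 5 lower) and 12 in females at 5 weeks. Plod3, which hydroxylates and glycosylates collagen lysines, rose in all 5 arms by 0.38 to 0.45, and Colgalt1, a collagen galactosyltransferase, rose by 0.31 to 0.42 in the 4 later arms. Bmp1, the procollagen C-proteinase, rose by 0.45 (adjusted p = 8.01e-05) in males at 1 week, 0.56 (9.09e-05) in males at 5 weeks and 0.64 (2.00e-07) in females at 5 weeks.

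Of 26 other collagens, 7 were higher and 7 lower in males at 1 week and in females at 5 weeks, 5 and 6 in males at 5 weeks, and 5 and 4 in females at 1 week. Col7a1, the anchoring fibril collagen, rose by 2.68 (SE 0.183, adjusted p = 2.31e-11), 2.56 (0.217, 2.73e-09), 2.48 (0.191, 2.04e-13) and 1.77 (0.210, 1.54e-08) in males at 1 and 5 weeks and females at 1 and 5 weeks. Of 10 other laminins and basement membrane genes, 6, 5, 4 and 8 were higher in those arms and none lower. Lama5, a laminin alpha chain, rose by 0.49, 0.73, 0.48 and 0.92, and Agrn (agrin) by 0.32, 0.48, 0.42 and 0.41. Of 30 other matrix glycoproteins, 13, 6, 6 and 13 were higher, and 1 was lower in females at 1 week. Spp1 (osteopontin), which injured neurons and macrophages also make, rose by 0.35 in males at 24 h, 0.70 in males at 1 week and 0.59 in females at 1 week.

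In contralateral ganglia of females the same 4 lists had 7, 7, 4 and 12 genes lower at 5 weeks than at 1 week and none higher, against 7.55% and 3.13% of all genes. Loxl2, a lysyl oxidase, fell by 1.34 (SE 0.175, adjusted p = 1.88e-06), Hspg2 (perlecan) by 0.59 (0.0971, 6.46e-05) and Dpt (dermatopontin), which is also among the fibroblast markers counted next, by 2.11 (0.351, 9.40e-05).

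Markers of cells that make these genes moved in some of the same comparisons, and their counts stand against the same shares of all genes (23.6% higher in males at 1 week, 23.9% and 22.9% in females at 1 and 5 weeks, and 7.55% lower between weeks in female contralateral ganglia). Of 16 fibroblast markers outside the 42, 4 were higher in males at 1 week (near the share of all genes) and 1 in females at 1 week (under it). Of the same 16, 9 were higher in females at 5 weeks, and 10 were lower at 5 weeks in female contralateral ganglia. Their summed level ran from 625.4 to 1197 CPM (median 1075) against 1369 to 1820 (median 1705) in males at 1 week, and from 413 to 832 (median 681) against 788 to 1363 CPM (median 990) in females at 5 weeks. These sums are carried by Apod and Gsn, with medians of 510 and 421 CPM over the 62 libraries, while the next, S100a4, had 50.4. Of 9 pericyte and smooth muscle markers, 4 were higher in females at 5 weeks and 5 lower at 5 weeks in female contralateral ganglia, and of 7 Schwann cell markers 6 were lower in that last comparison. Of 9 macrophage markers 7 were higher on the injured side in males at 1 week and in females at both times. In males at 24 h, 4 of 10 bone and 3 of 4 tested adipocyte markers were lower on the injured side, against 5.9% of all genes. Contralateral replicate 5 held 150.7 CPM of summed bone markers there, against 57.0 to 71.3 in the rest of its group. It held 36.8 CPM of summed adipocyte markers, against 1.44 to 5.91. The part of these cells in the results was not tested.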

How the data were processed

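Per the labels, poly-A RNA (integrity number 7.5 or more) was made into stranded TruSeq libraries and read single-end. Per the submitters' processing notes, the tools were featureCounts 1.6.4, STAR 2.7.2b, cutadapt 2.5 and bcl2fastq 2.20.0.422, and the build was mRatBN7.2. The authors deposited estimated counts, with reads shared between genes split (whole numbers make up 74.1% and 78.1% of the values above 0 in the 2 tables). They were rounded here, with library totals shifting by 0.0014% or less. Coordinates are those of the tables.

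Genes were kept by filterByExpr (minimum count 10), which all 42 passed, scaled by TMM and tested with the robust quasi-likelihood test of edgeR 4.0.16 (R 4.3.3) on a group design per table, with a joint fit across tables, and p-values were adjusted by Benjamini-Hochberg over all genes tested. Each SE is the size of the log2 fold change over the square root of F. The alternatives were RLE scaling, DESeq2 1.42.0, limma-voom (limma 3.58.1), no or a stricter filter (50), only the groups compared, the ribosomal RNA share, the contralateral libraries of the other week, the replicate block and each library left out. A run of the test on simulated counts, drawn independently for each library, is not reported here and does not vouch for the calls. The members, lists and alternatives were chosen with earlier results of these data known. By rule, values per library were given for Col1a1, Col1a2, Col3a1, Fn1, Postn, Dcn and the up to 3 members with the largest change in each direction among those called in a comparison, and pathway genes were named by the up to 3 smallest adjusted p per list and comparison. Other members given per library were chosen after their values were seen.

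The reported calls come from group designs in which the sides were not paired. Only the replicate block paired them, by replicate number, and the labels of the second table also give an animal code. In the first, every same-numbered pair of libraries deviated together: correlations of deviations from group means were at least 0.222 for males at 1 week and 0.197 at 5 weeks. Medians were 0.202 (lowest 0.01) for males at 24 h, 0.275 (lowest 0.111) for females at 1 week and 0.293 (lowest 0.243) at 5 weeks. For males at 24 h, 4 of the 6 pairs were over 0.1. Promoter sequences are from RefSeq (GRCr8).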

Additional observations from a re-analysis of the deposited data

Results flagged for a closer look

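In 14 of 190 groups tested, 1 library stood apart from the others by its gap relative to the range of the group, where chance gives about 1 in 20, or 9.5. Ipsilateral replicate 5 of females at 1 week was the highest of its group for Col8a1 (30.1 CPM), Fbn1 (138 CPM), Eln (115 CPM) and Lox (38.9 CPM). Contralateral replicate 6 of that arm was the lowest for Col3a1 (430 CPM) and Fbn1 (66.8 CPM). In females at 5 weeks the libraries were ipsilateral replicate 4 for Lama2 (169 CPM) and contralateral replicates 1 for Fbln5 (176 CPM) and 4 for Postn (15.5 CPM). In males at 24 h they were ipsilateral replicate 1 for Col1a2 (1440.0 CPM), contralateral replicate 4 for Lama2 (154 CPM) and contralateral replicate 5 for Postn (19.1 CPM), and in males at 5 weeks contralateral replicates 5 for Col16a1 (146 CPM) and 1 for Fbln5 (132 CPM).

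The difference between the sides itself was called as different between 2 groups 40 times (edgeR quasi-likelihood test, Benjamini-Hochberg). Of all genes, 13.5% were called for the female weeks, 23% for males from 24 h to 1 week, and 2.11% for the sexes at 5 weeks. No member was called for the male weeks or for the sexes at 1 week, against 0.211% and 1.11% of all genes. Of the female calls below, only Col14a1 was called with the ribosomal RNA share as a covariate. In females it was larger at 5 weeks than at 1 week, on the log2 scale, for the fibrillar Col1a1 (0.92), Col1a2 (0.89), Col3a1 (1.39), Col5a1 (0.57) and Col5a2 (0.69), and for Col12a1 (0.96), Col14a1 (0.68), Col6a1 (1.02), Col6a2 (0.95) and Col6a3 (1.06). Basement membrane genes had Col4a1 at 0.62, Col4a2 at 0.46, Col15a1 at 0.73, Lama2 at 0.59, Lamb1 at 0.37, Lamc1 at 0.55, Nid1 at 0.63 and Nid2 at 0.40. The rest were Fbn1 (1.03), Eln (2.02), Lox (1.54), Bgn (0.96), Fn1 (1.15), Sparc (0.30) and Thbs2 (1.41). In males it was larger at 1 week than at 24 h for Col1a1 (1.03), Col1a2 (0.94), Col3a1 (1.09), Col5a1 (0.54), Col5a2 (0.68), Col16a1 (0.33), Col6a1 (0.85), Col18a1 (0.43), Lamb1 (0.28), Fbn1 (1.10), Fn1 (1.5) and Sparc (0.36), and smaller for Fbln2 (-0.52) and Fbln5 (-0.54). The male 24 h and 1 week libraries lie in different tables, so time and table cannot be told apart there. Between the sexes the side difference was larger in females for Lama2 at 5 weeks (0.45), with sex tied to table. That call was lost with no filter on low counts, with only the groups compared and with the ribosomal RNA share as a covariate.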

How the results depend on the processing

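Under the alternatives, 359 fold changes were recomputed for 44 named results, the up to 3 largest called changes in each direction per comparison. Refits without a single library are not in this tally, and some of the named calls were lost there. Of the 359, 320 kept their direction and their call, 35 kept their direction and lost the call, and 4 reversed. Those 4 reversed where the contralateral libraries came from the other week: Eln (1.29) and Col3a1 (1.08) in females at 1 week, and Lox (-0.28) and Fn1 (-0.24) in females at 5 weeks. Of 224 counts of members called, which do include refits without a single library, 185 lay within 1.5 times of the reported count. The rest are listed here, and for each the cause was not tested. The replicate block, with sides paired, gave 11 calls in males at 24 h, 29 at 1 week and 13 at 5 weeks, 2 for the male change from 1 to 5 weeks, 22 for that from 24 h to 1 week, and 8 and 6 for the difference between the sexes at 1 and 5 weeks. It moved no other count by over 1.5 times. The other week's contralateral libraries gave 30 calls in males at 1 week, 32 in females at 1 week and 12 in females at 5 weeks. The ribosomal RNA share as a covariate gave 3 in females at 1 week, 3 and 0 for the weeks in male ipsilateral and contralateral ganglia, 0 in female ipsilateral ganglia, 1 for the female change of the side difference and 0 for the sexes at 5 weeks. No filter on low counts gave 3 in males at 24 h, 0 for the weeks in female ipsilateral ganglia and 0 for the sexes at 5 weeks. Fits of only the groups compared gave 1 in males at 24 h, 1 for the sexes at 1 week and 0 at 5 weeks. DESeq2 gave 14 for the weeks in male contralateral ganglia. Leaving out 1 library at a time gave 1 to 12 calls in males at 24 h, 9 to 18 and 7 to 13 for the weeks in male ipsilateral and contralateral ganglia, and 0 to 2 in female ipsilateral ganglia. In the arms of males at 1 and 5 weeks and females at 1 and 5 weeks it gave 10 to 20, 8 to 11, 8 to 11 and 25 to 38. The shares of all genes called under these alternatives are not given in this section. The moves are therefore not shown to be particular to the members. Small fold changes of genes at few counts, such as Col8a1 and Postn, are measured least well.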
